A study of Mus musculus with 35 samples.

Results

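A set of 10 genes of the Notch pathway, all 10 of those looked for, were followed across *Tet3* genotypes and expression vectors in mouse embryonic stem cells (ESCs) differentiated to neuroectoderm (NE). They were taken by gene symbol from the 3 deposited tables of normalized counts, which list 17948 genes (day 3), 18091 genes (Dnmt1 experiment) and 17705 genes (Tet3-CD experiment), and all 10 passed the filter on low values in each table. They comprise the ligands *Dll1*, *Dll3* and *Jag1*, the receptors *Notch1* and *Notch3*, the glycosyltransferase *Lfng*, and the targets *Hes1*, *Hes5*, *Hey1* and *Nrarp*.

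The cells were V6.5 male ESCs of mixed 129/C57BL/6 background, from which LIF was withdrawn while 1 uM retinoic acid was given, for 72 h per the labels. Wild-type cells (*Tet3*+/+, WT) were compared with a catalytic mutant (*Tet3* m/m, Mut), which carries substitutions in the iron-binding site of the enzyme, and with a knockout that lacks exon 4 (*Tet3*-/-, KO). The mutants are CRISPR/Cas9 clones, and the labels do not say which clone gave which sample. At day 3 there were 3 WT, 3 Mut and 2 KO samples. In the Dnmt1 experiment each genotype carried either an empty vector (pCAG-myc-IRES-blast, EV) or myc-Dnmt1, with 2 samples for each of the 6 combinations. In the Tet3-CD experiment each genotype carried an empty vector with tdTomato or HA-Tet3-CD, which encodes the tagged catalytic domain alone, with 1 sample for each combination. By the study's methods, the Tet3-CD cells were transfected during differentiation and collected later than day 3, and the cells of the Dnmt1 experiment were selected with blasticidin, so the experiments differ in stage and handling as well as in vector. The 26 RNA-seq samples held between 31155842 and 50845950 counted reads each, and the 9 samples of other assays in the series were not analysed here.

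In Notch signalling, a ligand on one cell binds a Notch receptor on its neighbour, the receptor is cut, and its freed intracellular domain joins the DNA-binding protein Rbpj to switch on target genes. The best known targets are the Hes and Hey repressors, which in the neural tube hold back proneural genes such as *Neurog2* and so keep progenitors from becoming neurons. *Nrarp* is a target whose product dampens the signal that induced it, and *Lfng* adds a sugar to Notch receptors that alters which ligands they respond to. *Dll3* differs from the other Delta ligands in that it does not activate receptors on neighbouring cells.

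Rbpj binds the sequence GTGGGAA, and the promoters of members holding these letters are shown. RefSeq promoter windows (GRCm38.p6, 250 bases before to 50 after the annotated start) were found for 8 of the 10 members, in 9 windows, with no entry for *Hes1* and *Hey1*. GTGGGAA was searched on both strands and occurred in 2 of the 8 members, *Hes5* and *Lfng*, beside 6.38% of all 32851 windows of the same length. Those 2 were called between genotypes below, and so were *Dll1*, *Dll3*, *Jag1*, *Notch3* and *Nrarp*, whose windows held no match. *Notch1*, also without a match, was not called. Capitals mark the matches, read 5′ to 3′ on the gene's strand.
Hes5 (chr4:154960673-154960972, plus strand): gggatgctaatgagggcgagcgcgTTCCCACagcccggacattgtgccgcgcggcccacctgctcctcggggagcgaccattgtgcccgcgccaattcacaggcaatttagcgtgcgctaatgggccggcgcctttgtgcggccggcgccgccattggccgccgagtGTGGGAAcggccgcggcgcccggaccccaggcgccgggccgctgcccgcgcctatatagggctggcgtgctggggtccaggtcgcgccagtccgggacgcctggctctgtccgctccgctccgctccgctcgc
Lfng (chr5:140607091-140607390, plus strand): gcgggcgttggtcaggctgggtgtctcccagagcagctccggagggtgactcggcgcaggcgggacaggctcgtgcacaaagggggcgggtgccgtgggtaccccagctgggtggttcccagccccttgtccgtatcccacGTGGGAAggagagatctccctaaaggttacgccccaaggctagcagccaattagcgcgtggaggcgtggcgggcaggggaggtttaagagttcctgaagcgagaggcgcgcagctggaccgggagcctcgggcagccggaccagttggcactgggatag
The *Hes5* window held 2 matches, on opposite strands, whose first bases lie 226 and 83 bases before the start. A window with 2 or more matches was found for 0.256% of all windows. The *Lfng* match begins 109 bases before the start and overlaps a CACGTG, the E-box-like sequence that Hes and Hey proteins can bind, which begins 112 bases before the start. CACGTG occurred in 7.15% of windows and, among members, also in that of *Nrarp*, 108 bases before the start. These letters are descriptions of the reference sequence, and binding was not measured in the files used here.

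Per kilobase of exon (GENCODE M21 exon lengths), *Notch3* was the most abundant member in WT cells at day 3, at 1699 ± 88.9 normalized counts per kb (SD, n = 3), followed by *Hes1* at 1242 ± 76.0 per kb. *Notch1* came next at 296 ± 26.3 per kb. The other 7 members had mean levels between 120 per kb (*Hey1*) and 178 per kb (*Lfng*). *Lfng*, *Dll1*, *Jag1* and *Nrarp* followed in that order, and the sample ranges of adjacent ones overlapped. *Hes5* stood at 125 ± 46.4 per kb, rank 9 of the members by mean. Its samples lay between 94.6 and 178 per kb and reached the range of *Lfng* (173 to 187 per kb).

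At day 3, every member had a lower mean log2 level in Mut than in WT cells, and 6 of the 10 passed the test. Called genes had a Benjamini-Hochberg adjusted p under 0.05 over all 17915 genes tested (limma on log2 of the normalized count plus 1) and a change of over 1.5-fold. By this rule 10.2% of all genes tested were called and 5.19% were called lower. The called members were the ligand *Jag1*, the receptor *Notch3*, *Lfng*, and the targets *Hes5*, *Hey1* and *Nrarp*. The median log2 difference of the 10 members was -0.72, beside 0.00 for all genes. According to a figure legend of the study, the day 3 samples came from independent clones of each genotype. Their p-values thus measure only the spread between these few clones. In the Dnmt1 experiment it is not stated whether samples of a group came from separate cultures or clones. The p-values there measure only the spread between these samples. In bulk RNA, fewer cells expressing a gene cannot be told apart from less of its RNA per cell.

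Among the ligands, *Jag1* had 821, 924 and 1149 normalized counts in WT, 571, 669 and 523 in Mut, and 980 and 713 in KO. The Mut samples lay below all WT samples, while 1 KO sample lay within the wild-type range and 1 below it. The *Jag1* difference in Mut was -0.71 ± 0.17 (log2 ± SE, limma adjusted p 0.0199). *Dll1*, the main activating Delta ligand of the early neural tube, had 590, 687 and 934 in WT, 201, 398 and 625 in Mut, and 433 and 345 in KO. The 3 Mut samples were spread widely, reaching into the wild-type range, and the difference of -0.97 ± 0.34 did not pass (adjusted p 0.0871 by limma), although DESeq2 called it (-0.85, adjusted p 0.0433). *Dll3* was at 345, 317 and 435 in WT, 242, 266 and 298 in Mut, and 240 and 244 in KO. Both mutants lay below the wild type for *Dll3* without overlap, but neither difference passed (-0.43 ± 0.17 with limma adjusted p 0.13 in Mut, and -0.58 ± 0.20 with 0.138 in KO).

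Of the receptors, *Notch3* had 13740, 13029 and 14468 normalized counts in WT, 9485, 9464 and 8029 in Mut, and 15308 and 14647 in KO. The catalytic mutant was thus the low group for *Notch3* and the knockout lay slightly above the wild type. The *Notch3* difference was -0.62 ± 0.09 in Mut (limma adjusted p 0.00197) and 0.12 ± 0.10 in KO (adjusted p 0.531). *Notch1*, the receptor best known from neural progenitors, had 3854, 4194 and 4603 in WT, 3744, 2764 and 2534 in Mut, and 4349 and 3260 in KO. One Mut sample was close to the wild-type range, and the *Notch1* difference of -0.50 ± 0.16 narrowly missed the threshold (limma adjusted p 0.0567). *Lfng* was nearly constant within genotypes, at 434, 433 and 468 in WT, 264, 277 and 262 in Mut, and 356 and 412 in KO. It fell by 0.73 on the log2 scale in Mut (SE 0.14, limma adjusted p 0.00765), while the KO samples lay between the other genotypes.

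The targets moved unequally. *Hes5* had 139, 129 and 243 normalized counts in WT, 0, 14.3 and 12.2 in Mut, and 5.30 and 22.8 in KO. All 5 mutant samples were far below the wild-type samples. The sample with 0 reads could have held up to 3.07 normalized counts, since a count of 0 allows 3 reads, and this limit covers counting error only. The fitted difference of -4.81 ± 0.95 in Mut (limma adjusted p 0.00822) therefore depends on the pseudocount, and it ranged from -5.97 to -3.53 over the alternatives tried. *Nrarp* had 346, 377 and 423 in WT, 89.1, 99.5 and 99.8 in Mut, and 290 and 171 in KO. The Mut samples clustered tightly at 25.4% of the wild-type level on the fitted scale, a log2 difference of -1.98 ± 0.22 (limma adjusted p 0.000388). *Hey1* had 418, 437 and 316 in WT, 174, 153 and 167 in Mut, and 286 and 319 in KO. It fell by 1.23 in Mut (SE 0.18, limma adjusted p 0.00169), with KO samples at the lower edge of the wild-type range. *Hes1*, in contrast, had 2561, 2361 and 2666 in WT and 2322, 2469 and 2643 in Mut, which overlapped throughout. Its difference was -0.03 ± 0.10 in Mut (limma adjusted p 0.88), and its KO samples, at 1919 and 2183, gave -0.30 ± 0.11 (adjusted p 0.159).

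**Figure D1:**
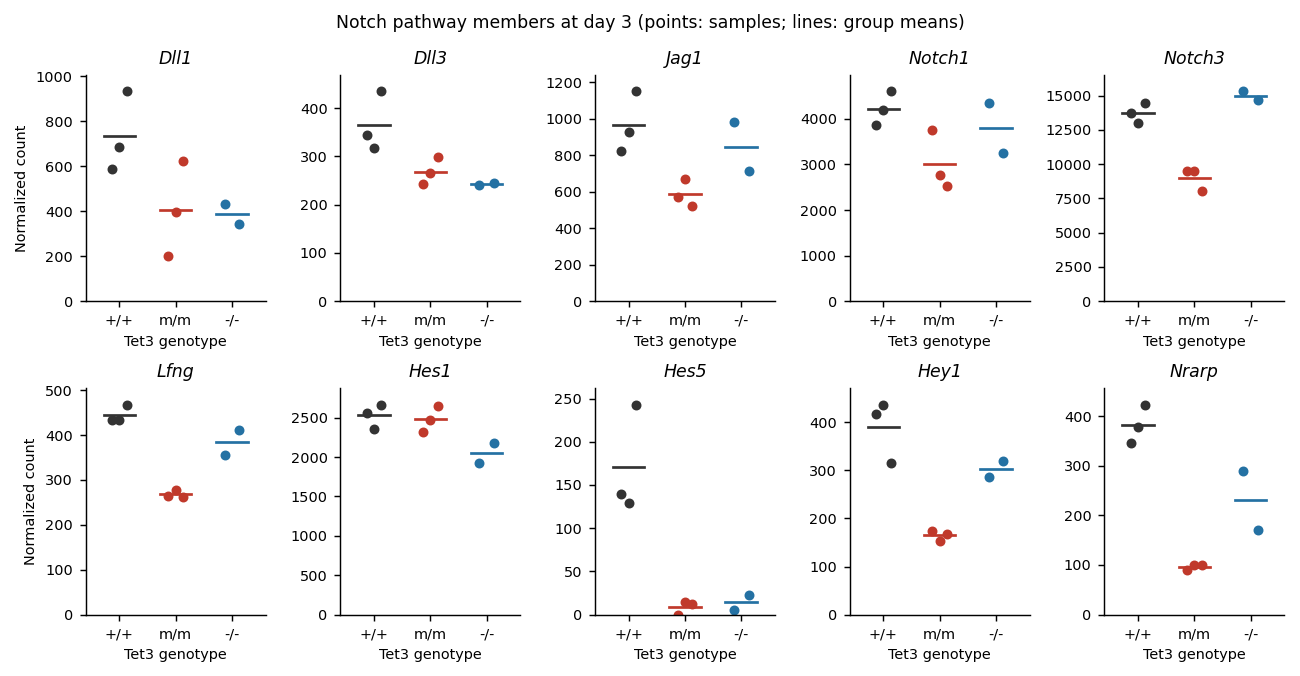
Normalized counts of the 10 members at day 3 (linear axes from 0), with 1 point per sample and a line at each group mean, for WT (+/+, 3 samples), Mut (m/m, 3) and KO (-/-, 2). In the panels of Hes5, Hey1, Nrarp, Lfng, Jag1 and Notch3, the Mut samples lie below all WT samples, and in that of Hes1 they overlap.

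Leaving out single samples ended the calls of *Jag1* and *Notch3* in Mut. For *Jag1* the limma adjusted p became 0.056 without WT replicate 2 (log2 difference -0.73), 0.0896 without WT replicate 3 (-0.57) and 0.0523 without Mut replicate 3 (-0.63), and *Notch3* dropped below 1.5-fold without WT replicate 3 (-0.58) or Mut replicate 3 (-0.54). *Dll1* was called without Mut replicate 3 (-1.35, limma adjusted p 0.0124), and *Notch1* without Mut replicate 1 (-0.67, adjusted p 0.0104).

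None of the 10 members was called between KO and WT cells at day 3, beside 0.642% of all genes. By limma 5 of the 10 members had an unadjusted p under 0.05, beside 3608 of all 17915 genes. Of the count tests, edgeR called 0 members, beside 86 of all 17915 genes. DESeq2 called 2 members, beside 916 of the same genes, namely *Hes5* (-3.60, adjusted p 0.0386) and *Nrarp* (-0.73, adjusted p 0.0485). The *Hes5* difference was -3.75 ± 1.06 (limma adjusted p 0.0927), and it passed without Mut replicate 1, a sample of neither group that enters the shared estimate of spread (adjusted p 0.0151). The *Nrarp* difference was -0.77 ± 0.25 (adjusted p 0.125). The difference was positive for *Notch3* and negative for the other members, and their median was -0.33, beside -0.01 for all genes.

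Set directly against each other, the mutants differed in 3 members at day 3, all higher in KO than in Mut, beside 9.73% of all genes called and 5.41% called higher. *Notch3* was higher by 0.74 ± 0.10 (limma adjusted p 0.00185), *Hey1* by 0.87 ± 0.20 (adjusted p 0.0192) and *Nrarp* by 1.20 ± 0.25 (adjusted p 0.0117). *Hes5*, low in both mutants, did not pass between them (1.06 ± 1.06, limma adjusted p 0.558). The samples of the mutants did not overlap for *Notch3*, *Hey1* and *Nrarp*, nor for the uncalled *Jag1*, *Lfng* and *Hes1*. The calls of *Hey1* and *Nrarp* were close to the threshold, and both were lost with only KO and Mut fitted (0.87 with limma adjusted p 0.0558, and 1.20 with 0.0553). *Nrarp* was not called without KO replicate 1 (0.82, limma adjusted p 0.0844), and *Hey1* was not called without Mut replicate 2 (0.82, adjusted p 0.0642) or without KO replicate 1 (0.95, 0.0544) or replicate 2 (0.79, 0.0868), nor with the replicate number as a block (0.80, 0.053).

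The rest of the pathway was read from 46 further genes, of which 45 were tested. Between Mut and WT at day 3, 4 of the 45 were called, all lower, beside 10.2% of all genes called and 5.19% lower, and the median difference of the 45 was -0.06. They were the ligands *Dll4* (-3.62 ± 0.71, limma adjusted p 0.00791) and *Dlk1* (-1.45 ± 0.12, 9.68e-05), the ubiquitin ligase of the Deltex family *Dtx4* (-1.51 ± 0.18, 0.000564) and the Hes family gene *Hes6* (-1.20 ± 0.14, 0.000421). *Dlk1* is a non-canonical ligand and *Hes6* is known to promote neuronal differentiation. By limma, none of the 9 genes for receptor proteolysis, 8 nuclear factors, 4 glycosylation enzymes and 2 other receptors was called. No gene of the 45 was called between KO and WT by limma, edgeR or DESeq2, beside 115, 86 and 916 of all 17915 genes. At an unadjusted limma p under 0.05 there were 8, beside 3608 of all 17915 genes. Between KO and Mut 5 were called, beside 9.73% of all genes, all higher in the knockout: *Dll4*, *Dlk1*, *Dtx4*, *Hes6* and *Dner* (2.22 ± 0.59, limma adjusted p 0.0339).

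Proneural and neuronal genes, which Hes proteins repress, were low beside the low *Hes5* of Mut. Of 10 such markers 9 were tested, and 8 were called lower and 1 higher in Mut at day 3, with summed levels of 3999 to 5611 normalized counts in WT, 2078 to 2365 in Mut and 4987 to 5691 in KO. In KO 2 of the 9 were called lower and 1 higher. Of 10 neural progenitor markers 4 were called lower and 1 higher in Mut, and 0 lower and 1 higher in KO (sums of 24423 to 31372 in WT, 21944 to 27114 in Mut and 30475 to 34532 in KO). Of 7 pluripotency markers 1 was called higher in Mut and 0 in KO (sums of 6042 to 10197, 9179 to 23082 and 4963 to 8901 in the same order), and of 10 extraembryonic endoderm markers 2 were called higher in Mut and 0 in KO (40001 to 57754, 45364 to 75400 and 44257 to 53687). The 7 fibroblast-associated genes, such as collagens, summed to 17027 to 27844, 10363 to 20490 and 42382 to 47260, with 1 called higher in Mut and 0 in KO. They were listed as markers of feeder fibroblasts. By the study's methods the ESCs were grown on feeder cells and pre-plated to remove these, and what remained of them was not measured here. Of early mesoderm (6 tested) and endothelium markers (4 tested), both cell types in which Notch genes are active, 1 each was called higher and 1 lower in Mut and 0 in KO, with sums of 1774 to 2029, 1308 to 1848 and 1419 to 1452, and of 1027 to 1237, 1060 to 1184 and 820 to 1076 normalized counts. The part of these cell populations in the differences of the Notch genes was not tested.

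With the empty vector, the same genotypes were compared in a separate set of samples. Between Mut and WT cells 5 members were called lower and 1 higher, beside 21.2% of all 18055 genes tested (10.9% lower and 10.3% higher). *Notch3* had 11267 and 10897 normalized counts in WT, 5721 and 5587 in Mut, and 15810 and 16192 in KO. The 3 genotypes were clearly apart for this receptor, with -0.97 ± 0.05 in Mut (limma adjusted p 4.62e-13) and 0.53 ± 0.05 in KO (adjusted p 9.32e-09, below 1.5-fold). *Jag1* had 765 and 814 in WT, 364 and 385 in Mut, and 514 and 557 in KO, again without overlap. It fell by 1.07 in Mut (SE 0.09, limma adjusted p 4.96e-09), while the difference in KO was -0.56 ± 0.09 (adjusted p 3.96e-05), just under 1.5-fold. *Lfng* had 382 and 393 in WT, 180 and 156 in Mut, and 313 and 353 in KO, so that it was low in the catalytic mutant (-1.20 ± 0.15, limma adjusted p 5.45e-07).

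Among the targets with empty vector, *Hey1* had 307 and 382 in WT, 133 and 141 in Mut, and 200 and 220 in KO. *Nrarp* had 302 and 358, then 151 and 155, then 169 and 176 in the same order. Both were low in both mutants, with -1.32 ± 0.16 and -1.10 ± 0.16 in Mut (limma adjusted p 6.77e-07 and 5.84e-06) and -0.70 ± 0.16 and -0.93 ± 0.16 in KO (adjusted p 0.00093 and 4.23e-05). *Hes1* was the reverse of these, at 1855 and 1927 in WT, 2375 and 2560 in Mut, and 2205 and 2335 in KO. Its differences of 0.38 ± 0.06 (limma adjusted p 4.27e-05) and 0.26 ± 0.06 (0.0017) were below 1.5-fold.

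*Hes5* was low in the empty-vector wild type, at 20.7 and 19.7 normalized counts, against 15.5 and 9.12 in Mut and 59.3 and 52.9 in KO. The knockout was therefore the high group here, above the wild type by 1.43 ± 0.50 (limma adjusted p 0.0207) and above Mut by 2.14 ± 0.50 (0.00077). In Mut the *Hes5* difference of -0.71 ± 0.50 from the wild type did not pass here (limma adjusted p 0.266), although its samples did not overlap. The call against the wild type was lost when any of its 4 samples was left out, with limma adjusted p of 0.0652 and 0.0793 without a WT sample (a and b) and 0.0949 and 0.0609 without KO replicates 1 and 2, and log2 differences between 1.34 and 1.51. *Dll1*, at 378 and 449 in WT, 717 and 608 in Mut, and 308 and 405 in KO, was the only member called higher in Mut with empty vector (0.68 ± 0.20, limma adjusted p 0.00792). That call was lost without WT sample a (0.56, limma adjusted p 0.0875) or Mut replicate 1 (0.56, 0.0891), and with DESeq2 (adjusted p 0.0519). *Notch1* (2953 and 3131, then 2601 and 2575, then 3150 and 3390) and *Dll3* (233 and 202, then 196 and 197, then 140 and 112) differed less in Mut, by -0.23 ± 0.06 (limma adjusted p 0.00319) and -0.14 ± 0.18 (0.575).

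In KO with empty vector 3 members were called lower, *Nrarp*, *Hey1* and *Dll3* (-0.78 ± 0.18, limma adjusted p 0.0012), and 1 higher, *Hes5*, beside 24.9% of all genes (13.9% lower and 11.0% higher). *Hey1* fell below 1.5-fold without WT sample b (-0.55). Between KO and Mut 4 members were called higher in the knockout and 2 lower, beside 39.6% of all genes (18.9% higher and 20.6% lower). *Notch3* (2.83-fold, limma adjusted p 8.04e-17), *Lfng* (0.98 ± 0.15, 4.52e-06), *Hey1* (0.61 ± 0.16, 0.00232) and *Hes5* were higher, and *Dll1* (-0.90 ± 0.20, 0.000461) and *Dll3* (-0.64 ± 0.18, 0.0044) were lower. *Dll3* was not called without KO replicate 2 (-0.48, limma adjusted p 0.0656), and *Hey1* fell below 1.5-fold without that sample (0.54) or Mut replicate 1 (0.57).

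**Figure D2:**
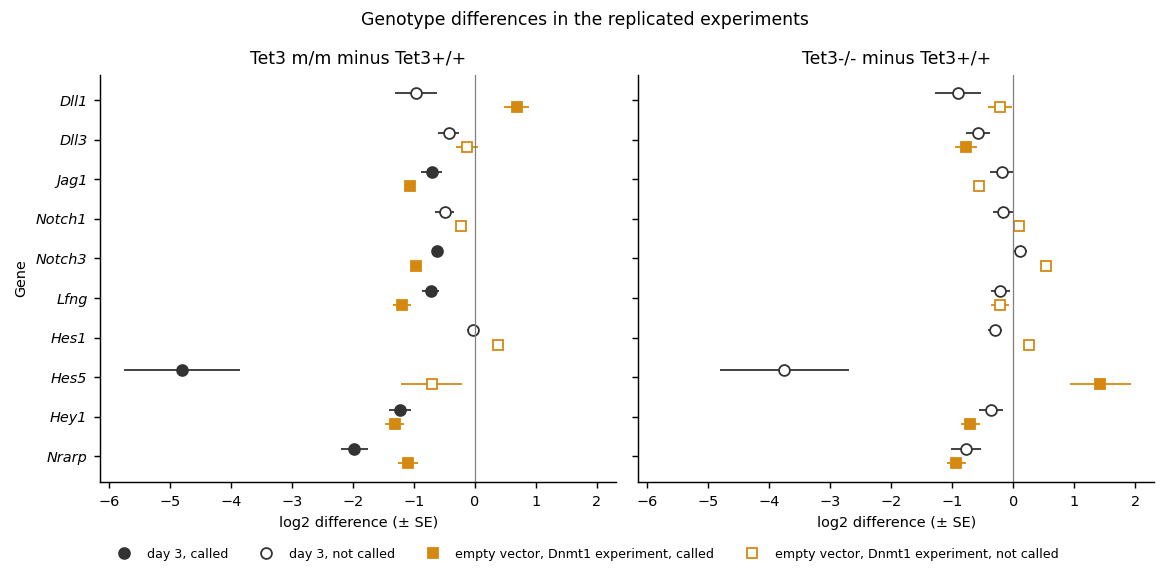
Fitted log2 differences from WT (± SE) for the 10 members in Mut (left) and KO (right), at day 3 (circles) and with empty vector in the Dnmt1 experiment (squares), with filled symbols for called differences. Jag1, Notch3, Lfng, Hey1 and Nrarp are filled and negative in both sets on the left, and Hes5 in KO is at -3.75 in one and 1.43 in the other.

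The genotype comparisons at day 3 and with empty vector share no samples, but whether they share clones is not stated. Relative to counting error, the median spread between samples of a group (chi-square over its expected value) was 8.34 to 21.3 at day 3. In the Dnmt1 experiment it was 3.07 to 5.53, so equal differences pass more easily there. The calls of both comparisons are set side by side within these limits. *Jag1*, *Notch3*, *Lfng*, *Hey1* and *Nrarp* were called lower in Mut in both, 5 of the 6 members called lower at day 3 (83.3%) and 5 of 5 with empty vector. Of the 17244 genes tested in both, 904 were called lower at day 3 and 1954 with empty vector, and the 553 called lower in both made up 61.2% of the first and 28.3% of the second. In KO no member was called lower in both, beside 12 of the 17244 genes (0.0696%). No member had been called lower in KO at day 3, where 33 of these genes were, so this count could only be 0.

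Marker levels also differed by genotype among the empty-vector samples. The 7 pluripotency markers summed to 35910 to 35964 normalized counts in WT, 90740 to 92439 in Mut and 4851 to 5276 in KO, with 7 called higher in Mut and 6 lower in KO. Extraembryonic endoderm markers summed to 136566 to 143419, 326637 to 368718 and 38746 to 40220 in that order, with 9 of 10 called higher in Mut, and 8 called lower and 1 higher in KO. Proneural and neuronal markers summed to 1633 to 1707, 3053 to 3157 and 2661 to 3027, with 3 of 9 called lower and 2 higher in Mut and 6 higher in KO. Of 10 neural progenitor markers 5 were called lower and 2 higher in Mut, and 4 lower and 4 higher in KO (sums of 20627 to 21226, 22667 to 23384 and 22805 to 23191). The fibroblast-associated genes summed to 17673 to 19424, 2884 to 3145 and 36285 to 36286, with 5 of 7 called lower and 1 higher in Mut, and 1 lower and 3 higher in KO. Endothelium markers summed to 1357 to 1483, 2617 to 2697 and 469 to 474, with 3 of 4 called higher in Mut and 3 lower in KO. Early mesoderm markers summed to 2495 to 2617, 1602 to 1677 and 2240 to 2364, with 2 of 6 called lower and 2 higher in Mut, and 2 lower and 1 higher in KO. The part of these populations in the Notch gene differences was not tested.

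Of the 45 other pathway genes, 5 were called lower and 2 higher in Mut with empty vector, beside 21.2% of all genes. The lower ones were *Hes3* (-5.39 ± 0.56, limma adjusted p 5.27e-08), *Dlk1* (-1.92 ± 0.06, 5.07e-17), *Dlk2* (-0.78 ± 0.29, 0.0347) and the coactivators *Maml2* (-1.10 ± 0.15, 3.52e-06) and *Maml3* (-0.61 ± 0.08, 1.76e-06). The receptor *Notch4* (0.79 ± 0.16, 0.000279) and the corepressor *Spen* (0.84 ± 0.07, 2.14e-09) were higher. *Dlk1* was thus called lower in Mut at day 3 and with empty vector, whereas in KO with empty vector it was called higher (1.82 ± 0.06, limma adjusted p 2.18e-16). The knockout with empty vector also had higher *Dlk2* and the gamma-secretase subunit *Aph1b*, and lower *Dner*, *Mfng*, *Neurl1a* and *Hes3*, 7 of 45 in all beside 24.9% of all genes. Between the mutants 20 of 45 were called, 13 higher in KO and 7 lower, beside 39.6% of all genes, among them *Rbpj* itself, lower in KO than in Mut (-0.74 ± 0.05, limma adjusted p 1.1e-11).

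Dnmt1 is the maintenance DNA methyltransferase, and its vector raised *Dnmt1* by 0.64 ± 0.07 in WT, 0.90 ± 0.07 in Mut and 1.06 ± 0.07 in KO (limma adjusted p at most 5.66e-06), which checks the vector labels. *Tet3* itself was lower in both mutants at day 3 (-1.05 ± 0.13 in Mut and -1.21 ± 0.15 in KO) and with empty vector was -1.53 ± 0.08 in Mut but -0.24 ± 0.08 in KO. A gene-level count shows neither the deletion of 1 exon nor amino acid substitutions, so it does not check the genotype labels.

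In WT cells Dnmt1 called none of the 10 members, beside 1.17% of all genes. By limma 4 of the 10 members had an unadjusted p under 0.05, beside 3592 of all 18055 genes. With edgeR and DESeq2 0 members were called, beside 270 and 264 of the same genes. *Notch1* passed on p alone, with 2953 and 3131 normalized counts under empty vector and 3866 and 3510 under Dnmt1 (0.28 ± 0.06, limma adjusted p 0.00875). *Hes5* had 20.7 and 19.7 under empty vector and 61.7 and 32.2 under Dnmt1, without overlap, but the difference of 1.11 ± 0.50 did not pass (limma adjusted p 0.217).

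In Mut cells Dnmt1 raised 2 members, *Jag1* and *Hey1*, beside 2.46% of all genes called and 1.78% called higher. *Jag1* went from 364 and 385 under empty vector to 662 and 727 under Dnmt1, without overlap, though below the 943 and 973 of WT cells with Dnmt1. Its difference was 0.89 ± 0.09 (limma adjusted p 1.48e-06). *Hey1* went from 133 and 141 to 269 and 282, close to the WT samples with Dnmt1 at 336 and 289, a difference of 1.00 ± 0.16 (limma adjusted p 0.000262). *Notch3* went from 5721 and 5587 to 6939 and 7356 (0.34 ± 0.05, limma adjusted p 7.06e-05), below 1.5-fold. *Nrarp* (151 and 155 to 144 and 137) and *Lfng* (180 and 156 to 189 and 189), which were low in Mut as well, did not pass (-0.12 ± 0.16 and 0.17 ± 0.15, limma adjusted p 0.714 and 0.543), and *Dll1*, *Hes1* and *Hes5* overlapped between vectors.

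In KO cells Dnmt1 lowered 2 members, *Hey1* and *Dll1*, beside 3.53% of all genes called and 1.02% called lower. *Hey1* went from 200 and 220 to 130 and 111 (-0.80 ± 0.16, limma adjusted p 0.00194), the opposite direction from Mut. *Dll1* went from 308 and 405 to 296 and 155 (-0.72 ± 0.20, adjusted p 0.0192), and this call rested on the lower Dnmt1 sample, since without KO Dnmt1 replicate 2 the difference was -0.25 (adjusted p 0.432). It was also lost without KO empty-vector replicate 2 (-0.52, adjusted p 0.238). *Nrarp* went from 169 and 176 to 120 and 111 (-0.58 ± 0.16, adjusted p 0.0181), which just missed 1.5-fold and exceeded it without KO Dnmt1 replicate 1 (-0.63). *Jag1*, at 514 and 557 under empty vector and 535 and 575 under Dnmt1, overlapped (0.05 ± 0.09, adjusted p 0.79 by limma). *Dll3* (140 and 112 to 163 and 188) and *Hes5* (59.3 and 52.9 to 54.7 and 22.6) did not pass, the first with values higher in both Dnmt1 samples (0.48 ± 0.18, limma adjusted p 0.0955).

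**Figure D3:**
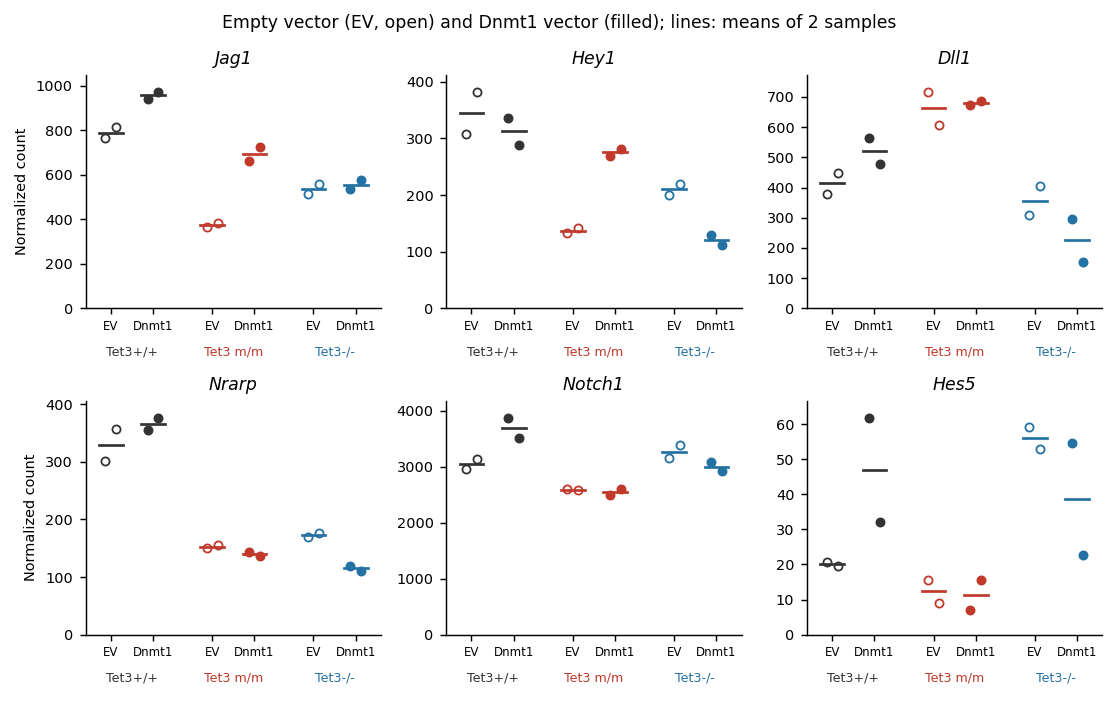
Normalized counts (linear axes from 0) of 6 members in the Dnmt1 experiment, with open points for empty vector, filled points for Dnmt1, 2 samples each, and lines at their means. Jag1 and Hey1 rise with Dnmt1 in Mut, Hey1 falls in KO, and the lower Dll1 point of KO with Dnmt1 is at 155.

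Whether the Dnmt1 effect differed between genotypes was tested directly. For *Jag1* it was larger in Mut than in WT by 0.61 ± 0.13 (limma adjusted p 0.0211) and differed by -0.84 ± 0.13 between KO and Mut (adjusted p 0.000206). For *Hey1* it was larger in Mut than in WT by 1.14 ± 0.23 (adjusted p 0.01) and differed by -1.80 ± 0.23 between KO and Mut (adjusted p 1.36e-05). These were the members called between Mut and WT, beside 0.604% of all genes (0.521% higher), and between KO and Mut, beside 5.38% (2.50% lower). Between KO and WT the effect differed for *Dll1* (-1.05 ± 0.28, limma adjusted p 0.0207) and *Nrarp* (-0.73 ± 0.22, 0.0436), beside 3.99% of all genes (1.33% lower).

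The differences from WT were close to the threshold. The *Jag1* adjusted p rose to between 0.0559 and 0.129 without either WT empty-vector sample, either WT Dnmt1 sample, Mut empty-vector replicate 1 or Mut Dnmt1 replicate 2 (log2 differences of 0.54 to 0.65). For *Hey1* it was 0.0957 without WT empty-vector sample b (0.98), 0.0774 without WT Dnmt1 replicate 2 (1.03) and 0.0501 without Mut Dnmt1 replicate 2 (1.10). The *Nrarp* call was lost on leaving out any sample but the knockout Dnmt1 replicate 1 and the Mut empty-vector samples (adjusted p of 0.0517 to 0.189, differences of -0.85 to -0.61), and that of *Dll1* without WT empty-vector sample a, KO empty-vector replicate 2, WT Dnmt1 replicate 1 or KO Dnmt1 replicate 2 (0.0987 to 0.121, differences of -0.93 to -0.59), all by limma. Without KO Dnmt1 replicate 1, *Hes5* (-2.38, limma adjusted p 0.0346) and *Hey1* (-0.78, 0.0351) were also called between KO and WT, and *Dll1* (-1.23, 0.000209) and *Dll3* (0.88, 0.0376) between KO and Mut, as was *Dll3* without KO empty-vector replicate 1 (0.94, 0.0402).

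Of the 45 other pathway genes, Dnmt1 called 2 in Mut, 1 in WT and 1 in KO, beside the 2.46%, 1.17% and 3.53% of all genes given above. In Mut, *Hes3* (3.15 ± 0.56, limma adjusted p 0.000676) and *Maml2* (0.71 ± 0.15, 0.00377) were called higher, both of which were low in Mut with empty vector. In WT *Hes7* was called lower (-1.19 ± 0.34, adjusted p 0.0411) and in KO *Dlk1* was called lower (-0.79 ± 0.06, 1.26e-08). Marker sums moved beside these results. In Mut the fibroblast-associated genes went from sums of 2884 to 3145 under empty vector to 4564 to 4660 under Dnmt1, with 4 of 7 called higher, and in KO the pluripotency markers went from 4851 to 5276 to 7827 to 7969, with 5 of 7 called higher. Their part in the *Jag1*, *Hey1* and *Dll1* results was not tested.

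The Tet3-CD experiment had 1 sample per group, so its differences have no replicate check and no test. They are given as log2 ratios with exact 95% binomial intervals that cover counting error only, and its members were counted as past 1.5-fold or not. The empty-vector samples can be read first. *Hes5* had 64.1 normalized counts in WT, 1.86 in Mut (2 reads) and 82.2 in KO. It was low in the catalytic mutant and not in the knockout, with ratios of -4.51 (interval -8.18 to -3.19) and 0.35 (-0.14 to 0.86). *Dll1*, *Hey1* and *Nrarp* were also lower in Mut by over 1.5-fold (468 to 204, 205 to 91.2 and 152 to 80.1 normalized counts), which made 4 of 10 members, all lower, beside 36.3% of all genes past this fold and 16.1% lower. In KO 1 member was past it, *Lfng* (263 to 157 normalized counts), beside 27.1% of all genes and 11.7% lower. *Jag1* (563, 512 and 597 in WT, Mut and KO), *Notch3* (9054, 9198 and 10071) and *Lfng* (263, 215 and 157), called lower in Mut in both replicated experiments, were within 1.5-fold in Mut here. *Dll1* in Mut was thus lower at day 3 without passing, higher with the empty vector of the Dnmt1 experiment, and lower here, and these differences between experiments were not tested.

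With Tet3-CD the *Tet3* count went from 4755 to 5441 in WT, 1850 to 5232 in Mut and 2070 to 2759 in KO. In WT 4 members were lower by over 1.5-fold and 0 higher, beside 13.4% of all genes past this fold and 7.30% lower. *Hes5* went from 64.1 to 21.7 (-1.52, interval -2.34 to -0.83), *Nrarp* from 152 to 96.8, *Dll3* from 105 to 67.2 and *Jag1* from 563 to 366. In KO 5 were lower and 0 higher, beside 21.5% and 11.6% lower. *Hes5* went from 82.2 to 27.4 (-1.55, -2.25 to -0.96), *Nrarp* from 182 to 75.6 (-1.26, -1.67 to -0.88), *Dll1* from 330 to 151 (-1.12, -1.41 to -0.85), *Dll3* from 137 to 66.1 and *Hey1* from 168 to 99.2.

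In Mut only *Dll3* passed the fold, from 98.7 to 39.5 (-1.30, interval -1.87 to -0.79), beside 10.1% of all genes and 5.53% lower. *Hes5* stayed at 2 reads in both samples, a depth at which no change could be seen (interval -3.77 to 3.80). *Nrarp* (80.1 and 90.2), *Hey1* (91.2 and 78.9), *Dll1* (204 and 209) and *Jag1* (512 and 583) had similar values with either vector. *Dll3* was thus lower with Tet3-CD in all 3 genotypes, and the abundant *Notch1*, *Notch3* and *Hes1* remained within 1.5-fold in all 3.

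**Figure D4:**
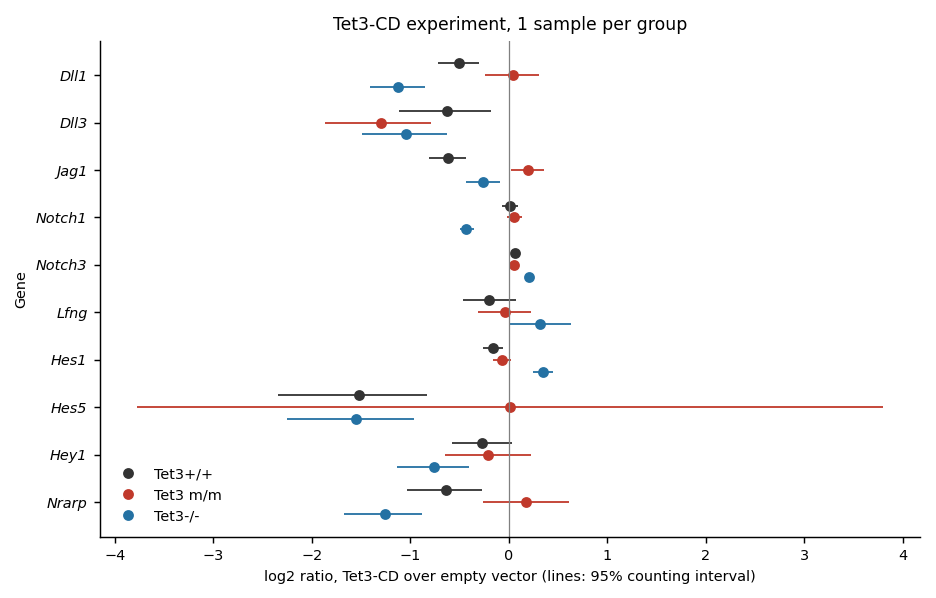
Ratios (log2) of the Tet3-CD sample to the empty-vector sample for the 10 members in each genotype, 1 sample per group, with exact 95% counting intervals as lines. Hes5 lies at -1.52 in WT and -1.55 in KO, and Dll3 lies below 0 in all 3 genotypes.

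Marker sums also differed among these 6 samples, without replicates or a test. Extraembryonic endoderm markers summed to 590785 normalized counts in WT with empty vector and 481163 with Tet3-CD, against 102814 and 89841 in Mut and 148283 and 79433 in KO. Neural progenitor markers summed to 10344 and 10820, 22757 and 22166, and 11567 and 19049 in the same order, and pluripotency markers to 8959 and 6322, 22346 and 20954, and 10623 and 6570. In KO, where 5 members were lower with Tet3-CD, endoderm markers were thus lower and progenitor markers higher. The part of cell populations in the ratios was not tested.

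The genes whose differences from WT were most like those of 3 members were found by root mean square distance over 5 group differences (both mutants at day 3, both with empty vector, and Dnmt1 in WT) among 17244 genes. For *Hes5* they were *Neurog1* (distance 0.86 on the log2 scale), *Neurog2* (1.31) and *Msx3* (1.31). *Neurog1* and *Neurog2* are proneural factors and *Msx3* is a homeobox gene of the dorsal neural tube. *Neurog1* had differences of -4.54, -1.96, -1.16, 1.82 and 1.45 where *Hes5* had -4.81, -3.75, -0.71, 1.43 and 1.11. For *Dll1* they were *Nrcam* (0.18), *Lpar5* (0.19) and the ribosomal pseudogene *Rps15-ps2* (0.19), whose reads may belong to its parent gene. For *Notch1* they included *Wdcp* (0.06) and *Ankrd26* (0.10), close in part because the *Notch1* differences were small, between -0.50 and 0.28.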

How the data were processed

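RNA-seq of 26 samples was used, of 35 in the series. The authors trimmed reads with Trim Galore 0.6.7, aligned them with STAR 2.7.9a, counted them per gene with featureCounts and divided the counts by DESeq2 size factors. The deposited values are thus a normalized count signal, scaled separately in each of the 3 tables. Multiplying back gave whole reads for 100.0% of values (tolerance 0.01), totalling 31155842 to 50845950 reads per sample, and edgeR and DESeq2 were run on these as alternatives. Samples were mapped to groups by the labels. Both empty-vector WT columns of the Dnmt1 table carry 1 name and are called a and b.

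The test was limma 3.58.1 (R 4.3.3, trended eBayes) on log2(value + 1), for genes with a mean of at least 10, over all samples of an experiment, with Benjamini-Hochberg adjustment over all genes tested. It was tested on simulated data. The 10 members, the other pathway genes and the marker lists were chosen with earlier results of these data known. Genes were named by membership or, for other pathway genes, by passing the test. Same-numbered samples did not deviate together (correlations of -0.098 to 0.082 over 7 pairs at day 3 and -0.053 to 0.029 over 16 pairs in the Dnmt1 experiment). Tools for figures and intervals were matplotlib 3.10.9 and scipy 1.17.1. Promoter windows come from RefSeq on GRCm38.p6, while the counts were made on mm39 per the methods, so no coordinates of the counts were used. Methylation, hydroxymethylation and chromatin samples were not used here. One of the genes found by likeness is not reported here.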

Additional observations from a re-analysis of the deposited data

Results flagged for a closer look

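The Dnmt1 effect differed between genotypes, by a test of the difference itself, for the members named here. With the fold threshold, 0.604% (Mut against WT), 3.99% (KO against WT) and 5.38% (KO against Mut) of all genes were called. *Notch1* and *Notch3* passed on adjusted p alone, a looser rule to which these shares do not apply. *Jag1* (0.61 on the log2 scale) and *Hey1* (1.14) responded more in Mut than in WT. Between KO and WT the effect differed by -1.05 for *Dll1*, -0.73 for *Nrarp* and -0.40 for *Notch1*, the last below 1.5-fold (limma adjusted p 0.00437). Between KO and Mut it differed by -0.84 for *Jag1*, -1.80 for *Hey1* and -0.34 for *Notch3*, the last below 1.5-fold (adjusted p 0.00169).

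For *Hes1* and *Hes5* the KO samples lay below all WT samples at day 3 and above them with empty vector. With so few samples per group such separation arises easily, and the share of all genes showing it was not counted. *Hes1* was lower at day 3 (-0.30, limma adjusted p 0.159) and higher with empty vector (0.26, below 1.5-fold). *Hes5* was lower at day 3 (-3.75, not past the threshold) and higher with empty vector (1.43), a call lost when any sample of either group was left out. These differences between experiments were not tested, since the tables were normalized separately. No group held enough samples for a search for single outlying samples.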

How the results depend on the processing

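When 1 sample at a time was left out, the members called numbered 5 to 6 in Mut with empty vector (6 with all samples) and stayed at 2 for Dnmt1 in Mut. The range was 4 to 7 for Mut at day 3 (6 with all samples), 0 to 1 for KO (0) and 1 to 3 between mutants (3). It was 2 to 4 for KO with empty vector (4) and 4 to 6 between mutants (6). For Dnmt1 in WT it was 0 and in KO 1 to 3 (2). For the genotype differences of the Dnmt1 effect it was 0 to 2 (Mut against WT), 0 to 4 (KO against WT) and 2 to 4 (KO against Mut). Other pathway genes called ranged from 4 to 5 and 2 to 7 (Mut against WT and KO against Mut at day 3), 6 to 9, 5 to 7 and 18 to 20 (Mut, KO and between mutants with empty vector), and 0 to 1, 1 to 2 and 1 to 3 (Dnmt1 in WT, Mut and KO).

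Between KO and WT at day 3 the members called rose from 0 to 1 with a pseudocount of 5, 2 with DESeq2 and 2 with only the compared groups fitted, as the calls over all genes went from 115 to 223, 916 and 664. Fitting only the compared groups left 1 member (of 3) and 3 other genes (of 5) between mutants, and 1 member (of 2) for Dnmt1 in KO. DESeq2 gave 1 member for Dnmt1 in KO and 1 for its difference from WT (2 each), and 7 other genes (4) in Mut at day 3. For other genes under Dnmt1 in WT (1), pseudocount 0.1 and DESeq2 gave 2, and a minimum mean of 50, edgeR and only the compared groups 0, and in Mut (2) a minimum of 50 and DESeq2 gave 1. The cause was not tested. Without the fold threshold, more genes pass by construction. For Mut at day 3, 7 other genes passed, beside 2485 of all 17915 genes. In the Dnmt1 experiment members numbered 7 (KO with empty vector) and 1 (Dnmt1 in WT). Other genes there numbered 26, 33 and 35 (Mut, KO and between mutants with empty vector), and 5, 6 and 4 (Dnmt1 in WT, Mut and KO). These counts stand without the share of all genes under the same rule, so they are not read as results about the pathway.

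A replicate block, which only shares numbers and pairs no samples, called 7 members in Mut at day 3 (adding *Dll1*), 2 between mutants and 1 for Dnmt1 in KO. It could not be fitted for comparisons with empty-vector WT, whose columns carry no numbers.

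Some uncalled differences, small or imprecise, changed sign on leaving out a sample, with these ranges. At day 3 they were -0.08 to 0.02 (*Hes1* in Mut), -0.42 to 0.04 and -0.37 to 0.05 (*Jag1* and *Notch1* in KO), and -0.37 to 0.45 and -0.22 to 2.02 (*Dll1* and *Hes5* between mutants), where *Dll1* was -0.07 by edgeR and by DESeq2. Under Dnmt1 they were -0.19 to 0.10 and -0.29 to 0.02 (*Lfng* and *Hey1* in WT), -0.08 to 0.16, -0.05 to 0.01 and -0.67 to 0.36 (*Dll1*, *Notch1* and *Hes5* in Mut) and -0.06 to 0.05 (*Notch3* in KO). For the genotype differences of the effect they were -0.29 to 0.09 and -0.03 to 0.12 (*Dll3* and *Hes1*, Mut against WT), and -0.01 to 0.14 and -1.12 to 0.12 (*Hes1* and *Hes5*, KO against Mut). Depth limited *Hes5*, with 0 to 2 reads in some Mut samples.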
